A study of Mus musculus with 40 samples.

Results

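The major urinary protein (Mup) genes Mup1, Mup2, Mup3, Mup7, Mup9, Mup10, Mup11, Mup12, Mup14 and Mup17 were followed in RNA of the subcutaneous white fat (sWAT) of mice. These 10 genes are among 34843 gene symbols in the count table and among the 41 Mup symbols it lists, of which 21 are protein-coding and 20 are pseudogenes. They were chosen by measured values, namely their fall on high-fat diet and a rise that was clear after the diet switch but not with either drug. The comparisons of each treated group with HFD and of HFD with ND therefore describe the choice and carry no test here. Because the copies are nearly identical, the counts of the 10 genes were added in each library, and this Mup sum is the main quantity.

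The tissue came from 5 groups with 8 libraries each. The diet-switch group was moved from HFD to ND. The other groups were HFD with tirzepatide, HFD with semaglutide, HFD alone (high-fat diet) and ND alone (normal diet). Tirzepatide is a peptide agonist of the receptors for glucose-dependent insulinotropic polypeptide and glucagon-like peptide 1, and semaglutide activates the glucagon-like peptide 1 receptor. The labels give no dose, duration, strain, age, sex or time of collection. What the diet-switch mice received before the switch is also not stated, although the series title places a dietary intervention after incretin treatment. Samples are numbered within groups but are not stated to be separate animals, and each p-value therefore reflects only how far these samples spread, which may be technical. QuantSeq libraries, in which reads come from the ends of transcripts, held 2115471 to 7445548 counts (median 3765319). The 4 Y-linked genes Ddx3y, Uty, Kdm5d and Eif2s3y together had at least 158 counts in every library, and Xist, the RNA of the inactive X chromosome, had 90 counts over all 40 libraries.

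Major urinary proteins are small secreted lipocalins that carry volatile odorants and are best known as products of the mouse liver that pass into urine, where they act in scent communication. In liver their transcription depends on pulsed growth hormone acting through STAT5B, and it is raised by testosterone, thyroid hormone and glucocorticoids. MUP1 has also been studied in mice as a circulating protein with effects on glucose and lipid metabolism. The genes arose by repeated duplication and lie in 1 large cluster.

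The 10 genes lie on chromosome 4 of GRCm38 (mm10) on the minus strand. Mup2 lies at chr4:60135932-60154289, Mup10 at chr4:60578260-60582199, Mup17 at chr4:61591929-61595871 and Mup3, at the far end of the cluster, at chr4:62083476-62087342. RefSeq windows on GRCm38.p6 were matched by symbol for 8 of the 10 genes. The 250 bases before the annotated start of 4 of them are printed 5′ to 3′ on the transcribed strand, to show how alike the main copies are and how Mup3 differs. Capitals mark TATATAA, a form of the TATA box, found on either strand. In Mup10 the capitals cover 2 overlapping matches on opposite strands. The windows are chr4:60139857-60140106 for Mup2, chr4:61595833-61596082 for Mup17, chr4:60582156-60582405 for Mup10 and chr4:62087318-62087567 for Mup3. Each window overlaps the gene span given above, since the spans come from GENCODE and the starts from RefSeq, and these differ. The Mup2 window lies wholly inside its span.
Mup2: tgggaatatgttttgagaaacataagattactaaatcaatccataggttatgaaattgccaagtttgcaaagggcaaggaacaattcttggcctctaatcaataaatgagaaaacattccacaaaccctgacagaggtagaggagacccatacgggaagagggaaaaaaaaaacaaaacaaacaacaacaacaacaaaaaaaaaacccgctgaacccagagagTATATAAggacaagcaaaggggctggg
Mup17: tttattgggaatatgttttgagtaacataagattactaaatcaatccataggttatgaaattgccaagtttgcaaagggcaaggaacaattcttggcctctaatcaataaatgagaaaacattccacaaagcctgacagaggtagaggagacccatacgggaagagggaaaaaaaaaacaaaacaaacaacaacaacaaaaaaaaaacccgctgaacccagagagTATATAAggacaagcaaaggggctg
Mup10: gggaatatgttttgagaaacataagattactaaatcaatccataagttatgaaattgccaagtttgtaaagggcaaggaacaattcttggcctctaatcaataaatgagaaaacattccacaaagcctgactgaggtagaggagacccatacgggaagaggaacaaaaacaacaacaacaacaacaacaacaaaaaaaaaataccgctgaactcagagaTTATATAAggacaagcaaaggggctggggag
Mup3: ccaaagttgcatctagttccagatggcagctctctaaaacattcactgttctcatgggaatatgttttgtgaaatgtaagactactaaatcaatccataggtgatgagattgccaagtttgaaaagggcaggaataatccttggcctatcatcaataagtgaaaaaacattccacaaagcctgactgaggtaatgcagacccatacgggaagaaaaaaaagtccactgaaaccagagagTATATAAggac

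Aligned to the Mup2 window, the Mup17 window was 97.2% identical, the Mup10 window 94.8% and the Mup3 window 69.6%. The Mup7 window was 54.8% identical, and its annotated start lies further upstream in the shared sequence. TATATAA, chosen after the sequences were seen, occurred in 5 of the 8 windows and in 10 of the 13 windows matched to any Mup gene of the table, against 3.02% of 32536 windows of the same length over all genes. The core of the STAT binding motif, TTCNNNGAA, occurred in 0 of the 8 windows and in 7.04% of all windows. The half-site of the glucocorticoid receptor, TGTTCT, occurred in 1 of the 8 (Mup3) and in 16% of all windows. Both strands were searched, and these motifs do not overlap TATATAA in the windows printed. A match is only a match of letters, and its absence concerns this window alone.

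The ends of the transcripts, where the reads lie, limit what a single copy can show. Over the last 300 bases of the transcripts, the 9 genes other than Mup3 were at least 93.0% identical to one another in all 36 pairs, and they were 84.0% to 88.7% identical to Mup3. The ends of Mup2 and Mup10 were identical, yet they had 6896 and 6520 counts over all libraries, and 0 libraries gave them equal counts. The split of their reads varied between libraries no more than a random draw would (chi-square per degree of freedom 0.682). Values of single copies are therefore uncertain as levels of that gene, since reads of near-identical copies may be split between them. The 10 genes held 43034 counts, 51.8% of the 83050 counts on all Mup symbols, and 41 to 6594 counts per library.

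Mup RNA ran over a wide range in sWAT, with diet-switch and ND libraries at the top and semaglutide libraries at the bottom. Levels are given in CPM, which are counts scaled to library sizes corrected with TMM factors. In the diet-switch group the Mup sum had a lowest value of 93.7, a median of 406 and a highest value of 1429 CPM. With tirzepatide these were 28.1, 98.7 and 477 CPM, and with semaglutide 9.32, 25.2 and 46.9 CPM. They were 34.0, 79.0 and 143 CPM on HFD and 288, 471 and 1723 CPM on ND. Every HFD library and every semaglutide library lay below every ND library, and every semaglutide library lay below every diet-switch library. In bulk tissue, fewer cells of a type and less RNA per cell cannot be told apart.

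**Figure D1:**
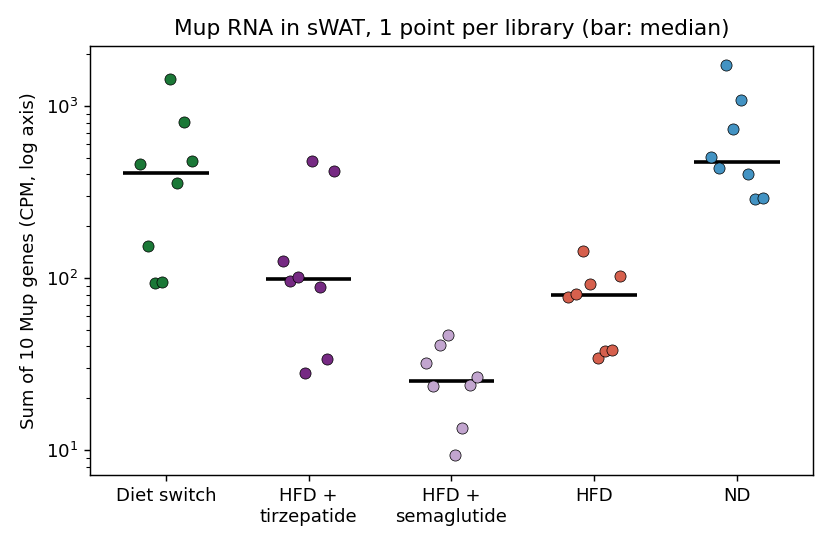
Summed CPM of the 10 Mup genes (log axis) for each of the 40 libraries by group, with 1 point per library and a bar at the median. Medians are 406 CPM after the diet switch, 98.7 with tirzepatide, 25.2 with semaglutide, 79.0 on HFD and 471 on ND, and the diet-switch and tirzepatide points spread widest.

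The groups differed in how far their own libraries stood apart. On the log2 CPM scale the Mup sum averaged 8.35 ± 1.43 after the switch, 6.78 ± 1.46 with tirzepatide, 4.63 ± 0.76 with semaglutide, 6.08 ± 0.77 on HFD and 9.14 ± 0.92 on ND (SD, n = 8 each). Diet-switch libraries 3, 4 and 2 had 93.7, 94.5 and 154 CPM, while libraries 5 and 7 had 1429 and 812 CPM. The first 3 lay below every ND library, and the other 5 lay within the ND range. Tirzepatide libraries 5 and 8 had 477 and 417 CPM, above every HFD library, while libraries 4 and 7 had 28.1 and 33.8 CPM, below every HFD library. The remaining 4 tirzepatide libraries, at 88.4 to 125 CPM, lay within the HFD range. On ND, library 3 had 1723 CPM and library 5 had 1082 CPM, and the other 6 had 288 to 732 CPM.

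In the comparisons that chose the genes, the log2 fold changes of the Mup sum ± SE were -3.17 ± 0.59 for HFD against ND, a ratio of 0.111, and 2.68 ± 0.58 for the diet switch against HFD, a ratio of 6.39. All 8 diet-switch libraries were above the HFD median and 6 of them above the highest HFD library. For semaglutide against HFD the value was -1.49 ± 0.57, with all 8 semaglutide libraries below the HFD median and 6 below the lowest HFD library. For tirzepatide against HFD it was 1.18 ± 0.55, with 6 of 8 libraries above the HFD median. Without tirzepatide library 5 this last value was 0.75. Over all 15799 tested rows the median log2 fold change lay between -0.04 and 0.05 in these 4 comparisons.

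The comparisons that did not choose the genes share their libraries with those that did, and each follows from a pair of them. They are therefore not independent of the choice. In the first, diet-switch libraries were set against ND libraries, which asks how near the level after the switch lay to that of mice on ND. Choosing genes for a fall on HFD and a clear rise after the switch favours a level near ND in advance. The Mup sum had a log2 fold change of -0.50 ± 0.54 (95% interval -1.60 to 0.60), a ratio of 0.71 with an interval of 0.331 to 1.52. The quasi-likelihood test of edgeR with Benjamini-Hochberg adjustment gave an adjusted p of 0.575, with 5 of 8 diet-switch libraries below the ND median. A level after the switch of 0.331 times that of ND is thus within the interval, and no difference was detectable given this spread. Without diet-switch library 5 the value was -0.97, and without ND library 3 it was -0.14, both again not called.

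Between tirzepatide and semaglutide, both given on HFD, the Mup sum differed in the direction that the values against HFD already set. The median was 98.7 CPM with tirzepatide against 25.2 CPM with semaglutide, all 8 tirzepatide libraries lay above the semaglutide median, and 6 lay above the highest semaglutide library. The log2 fold change was 2.67 ± 0.59 (95% interval 1.47 to 3.86), a ratio of 6.35, with an adjusted p of 0.00426 in the edgeR quasi-likelihood test. In this comparison 9.96% of all tested rows were called, 4.05% higher and 5.91% lower. An exact permutation test of log2 CPM over the 16 libraries, two-sided and chosen as an alternative, gave a difference of means of 2.16 with p = 0.00233. The log2 fold change of 2.67 is the difference of those against HFD, 1.18 with tirzepatide and -1.49 with semaglutide, which chose the genes. Both p-values are therefore drawn from values used in the choice and are no independent test.

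**Figure D2:**
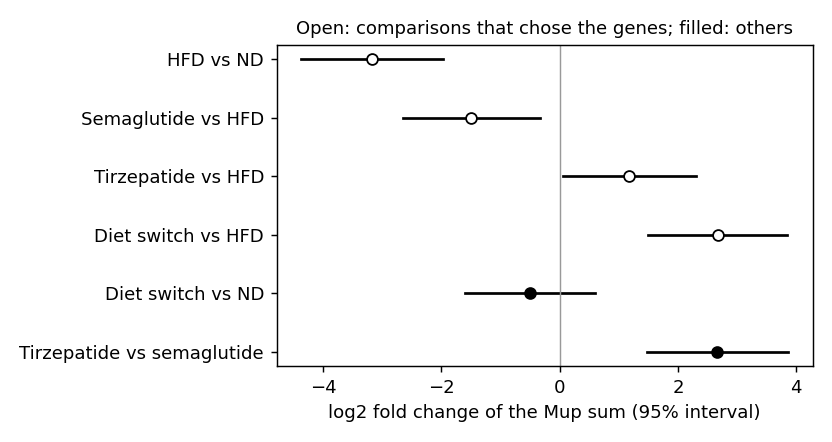
Log2 fold change of the Mup sum with its 95% interval in 6 comparisons, from 1 fit of 40 libraries. Where the comparison chose the genes, the interval describes the fit and is no test. Open points mark the comparisons that chose the genes, and filled points are diet switch against ND (-0.50), whose interval spans 0, and tirzepatide against semaglutide (2.67). The filled comparisons are not independent of the choice either, since each follows from a pair of open ones.

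The order of the median levels, lowest first, was semaglutide, HFD, tirzepatide, diet switch and ND. Between the neighbours, diet switch and ND did not differ beyond their spread. Tirzepatide and diet-switch libraries overlapped, with 2 of 8 diet-switch libraries below the tirzepatide median. Tirzepatide libraries reached both above and below the HFD range.

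The copies moved as a block. Taken as single rows, 9 of the 10 genes passed the filter on low counts, and Mup3 did not. The log2 fold changes of the 9 genes ran between -3.27 (Mup17) and -3.09 (Mup14) for HFD against ND, and between 2.52 (Mup11) and 2.76 (Mup10) for the diet switch against HFD. Mup2, the copy with the most counts, held 16.09% of the sum after the switch, 16.02% with tirzepatide, 15.6% with semaglutide, 16.5% on HFD and 15.9% on ND. Mup10 held 15.7% of the sum after the switch, 14.7% with tirzepatide, 13.4% with semaglutide, 14.5% on HFD and 15.1% on ND. Mup11 held 8.76%, 10.4%, 8.61%, 9.54% and 10.1% in the same order of groups. Across the 40 libraries Pearson's r of each of the 9 genes with the sum of the other 9 members was 0.971 to 0.996, a description that the sharing of reads between copies helps to set.

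Mup3, the member whose end differs most from the others, had few counts. It had 28 counts over the 8 diet-switch libraries, 12 with tirzepatide, 9 with semaglutide, 13 on HFD and 24 on ND, and it was at 0 in 2, 4, 4, 4 and 0 libraries of these groups. Its highest library had 2.88 CPM after the switch and 1.72 CPM on ND. Its part of the sum was 0.21% after the switch, 0.18% with tirzepatide, 1.08% with semaglutide, 0.53% on HFD and 0.12% on ND. Its r with the other members was 0.382. With so few counts no fold change is given for it.

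**Figure D3:**
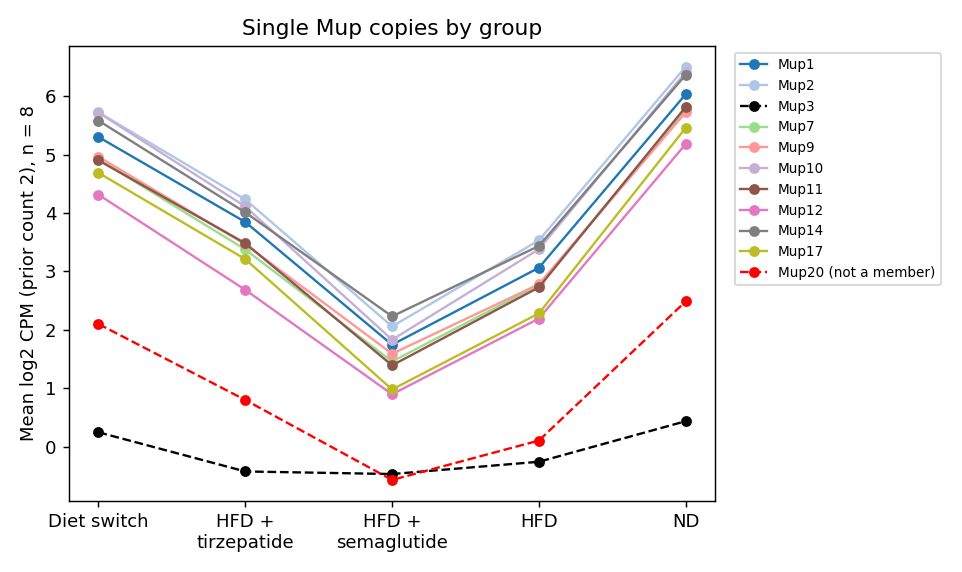
Mean log2 CPM of each of the 10 Mup genes, and of Mup20, in 5 groups of 8 libraries. The 9 members with many counts run in parallel and are lowest with semaglutide, Mup20 (red, dashed) runs below them with the same order of groups, and Mup3 (black, dashed) stays near the level of a single read.

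Of the 11 other protein-coding Mup genes in the table, 8 were tested. All 8 were called higher with tirzepatide than with semaglutide, where 4.05% of all tested rows were called higher. Their median log2 fold change there was 2.79, against -0.01 over all tested rows. For diet switch against ND 0 of 8 were called (14.8% of all tested rows called, 7.97% higher and 6.82% lower). Between diet switch and ND 0 of 8 had an unadjusted p under 0.05, and DESeq2 also called 0. Most of these genes share reads with the members and are not separate evidence. Mup20 has a more distinct end but is of the family that was chosen, so it is not independent of the choice. It encodes darcin, a male scent-mark pheromone bound in urine, and 92.8% of the 50-base words at its transcript end occur in no other Mup gene. Mup3 has the same share of such words, and its counts were 12 with tirzepatide and 9 with semaglutide.

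Mup20 had a lowest value of 0.0, a median of 1.01 and a highest value of 4.71 CPM with tirzepatide, against 0.0, 0.11 and 0.57 CPM with semaglutide. Its counts over the 8 libraries were 70 with tirzepatide and 6 with semaglutide, where 4 libraries had 0. The counts were 154 after the switch, 22 on HFD and 169 on ND. Mup20 passed the filter on low counts through the diet-switch and ND libraries, where it was higher. The log2 fold change for tirzepatide against semaglutide was 3.04 ± 0.79 with an adjusted p of 0.0119 (edgeR quasi-likelihood test), and it was 2.59 with an adjusted p of 0.0340 without tirzepatide library 8. Mup20 followed the member sum over the 40 libraries with r = 0.929. Mup5 had 30 counts after the switch, 11 with tirzepatide, 0 with semaglutide, 2 on HFD and 58 on ND. Mup6 had 69, 31, 4, 11 and 79 counts in the same order. Mup5 and Mup6 did not pass the filter and are of the chosen family, so they are not separate evidence. Mup4 had 5, 7, 0, 0 and 5 counts, and the pseudogene Mup-ps21 had 12, 2, 15, 27 and 3.

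The labelled tissue was checked against markers, and markers of liver, the main site of Mup transcription, were read beside the Mup sum. The 10 adipocyte genes, among them Adipoq and Plin1, summed to 9113 to 25310 CPM in every library. Of 18 hepatocyte genes, 5 had 10 counts or fewer over all 40 libraries. Fga had 0 counts, Fgb 7, Fgg 5, Apoh 7 and Cps1 1. Apoa1 had 101 and Ttr 16 counts over all libraries, while Alb had 2395, Serpina1a 680 and Serpina3k 562. The 10 Mup genes had 43034. Without Cyp2e1, which adipose tissue also expresses, the hepatocyte genes summed to 15.7 to 48.4 CPM after the switch, 10.4 to 53.7 with tirzepatide, 11.1 to 35.5 with semaglutide, 11.2 to 40.5 on HFD and 30.9 to 78.3 on ND. The medians of these sums were 24.6 CPM after the switch, 17.6 with tirzepatide, 23.1 with semaglutide, 27.8 on HFD and 57.0 on ND. Whether RNA of liver had a part in the Mup sum was not tested.

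Albumin (Alb) did move with diet. Its median was 10.5 CPM on HFD against 35.8 CPM on ND, with a highest HFD library of 14.1 CPM and a lowest ND library of 16.3 CPM. The log2 fold change was -2.05 ± 0.38 with an adjusted p of 4.69e-04 (edgeR quasi-likelihood test). Alb was the 1 of 6 tested hepatocyte genes called for HFD against ND, where 4.43% of all tested rows were called, 2.8% higher and 1.63% lower. The median of the 6 was -0.20, against -0.04 over all tested rows. For the diet switch against HFD the log2 fold change of Alb was 0.55 ± 0.38 and its adjusted p 0.310, while the Mup sum had 2.68. Alb had a Pearson's r of 0.59 with the Mup sum over the 40 libraries and of 0.31 within groups. For the diet switch against ND its log2 fold change was -1.50 ± 0.37 (adjusted p 0.00657), a call that ended without diet-switch libraries 3, 4 and 7 (adjusted p 0.0958) and without the 11 libraries richest in muscle RNA (adjusted p 0.0511).

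Skeletal muscle genes, which mark another tissue, varied with the groups too. The 10 genes, among them Ckm and Acta1, had a median sum of 263 CPM after the switch, 1080 with tirzepatide, 96.0 with semaglutide, 156 on HFD and 280 on ND. The highest libraries reached 4065, 3264, 479, 1102 and 4572 CPM, and Myh4 and the other markers were at 0 in no group. For HFD against ND the 9 tested muscle genes had a median log2 fold change of -3.04. By edgeR 1 was called lower (1.63% of all tested rows). By DESeq2 4 were called, where 903 of 15799 rows were called. All 9 had an unadjusted p under 0.05, and the share of all rows with such a p is not given. For tirzepatide against semaglutide the median was 3.33. By edgeR 3 were called higher (4.05% of all tested rows). By DESeq2 all 9 were called, where 2011 of 15799 rows were called. All 9 again had an unadjusted p under 0.05, with no share over all rows given. The median of the muscle genes had the sign of the Mup sum in all 6 comparisons. It was 2.785 for the diet switch against HFD, with 2 of 9 called higher by edgeR (12.8% of all tested rows). For tirzepatide against HFD it was 2.726, with 2 of 9 called higher (9.81% of all tested rows). It was -0.25 for semaglutide against HFD and -0.39 for diet switch against ND. Within groups, Pearson's r of the muscle genes with the Mup sum was -0.13 to -0.26. Without the 11 libraries highest in muscle RNA the Mup sum had a log2 fold change of -3.43 for HFD against ND and 3.00 for the diet switch against HFD, which chose the genes, and 2.94 for tirzepatide against semaglutide (adjusted p 0.0208, edgeR). The 12 genes of mammary epithelium, of which 10 are in the table, summed to at most 12.3 CPM in any library. The 7 B cell genes summed to 418 to 863 CPM in semaglutide libraries 1, 3 and 8 and to 734 CPM in ND library 5, against group medians of at most 8.87 CPM, and their part in the Mup result was not tested.

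**Figure D4:**
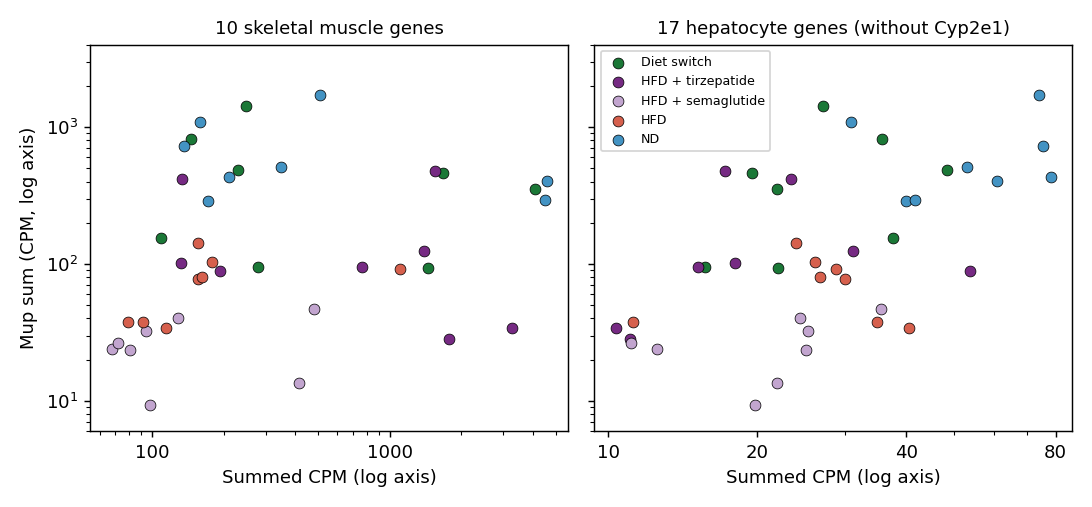
Mup sum (CPM, log axis) against the summed CPM (log axis) of 10 skeletal muscle genes, left, and of 17 hepatocyte genes without Cyp2e1, right, with 1 point per library coloured by group. Libraries with muscle sums above 1000 CPM lie at high and at low Mup sums, and on the right the ND libraries, at 30.9 to 78.3 CPM, reach furthest to the right.

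Of the genes of growth hormone signalling, the main drive of Mup transcription in liver, few were called in any comparison, and not always in 1 direction. For tirzepatide against semaglutide 2 of 14 were called lower (5.91% of all tested rows) and 0 higher. Igfbp3, a carrier of insulin-like growth factors in plasma, had a median of 4.402 CPM with tirzepatide against 22.21 CPM with semaglutide, and its log2 fold change was -2.15 ± 0.30 (adjusted p 6.25e-05, edgeR quasi-likelihood test). Socs1, an inhibitor of cytokine signalling, had 4.198 CPM against 10.41 CPM and -1.30 ± 0.35 (adjusted p 0.0162), a call that ended without semaglutide library 1 (-0.86, adjusted p 0.0940) and without the 11 muscle-rich libraries (-1.66, adjusted p 0.117).

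Of the same 14 genes, 0 were called for HFD against ND by edgeR, where 4.43% of all tested rows were called. Of these genes 2 had an unadjusted p under 0.05, and DESeq2 called 0. With diet-switch libraries 3, 4 and 7 left out of the fit, 1 was called lower, where 774 in place of 700 rows were called in either direction. This was Cish, at -1.92 (adjusted p 0.0419, edgeR) in place of -1.93 ± 0.75 (adjusted p 0.153). The median log2 fold change of the 14 genes was -0.08, against -0.04 over all tested rows. The growth hormone receptor Ghr had a median of 467 CPM on HFD against 609 CPM on ND and a log2 fold change of -0.23 ± 0.21 (adjusted p 0.617, edgeR quasi-likelihood test). Stat5b, the factor through which growth hormone acts on liver genes, had 22.4 CPM against 24.0 CPM and -0.12 ± 0.14 (adjusted p 0.726). Neither gene was called for the diet switch against HFD, with 0.43 ± 0.21 for Ghr (adjusted p 0.125) and 0.28 ± 0.14 for Stat5b (adjusted p 0.159). Ghr was called there without HFD library 3 (0.56, adjusted p 0.0409, edgeR).

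For the diet switch against HFD, 2 of the 14 genes were called higher and 2 lower, where 23.7% of all tested rows were called, 12.8% higher and 10.9% lower. Cish, a feedback inhibitor induced by STAT5, had a lowest value of 0.46, a median of 4.63 and a highest value of 67.2 CPM after the switch, against 0.60, 2.04 and 4.62 CPM on HFD. Its log2 fold change was 2.61 ± 0.75 with an adjusted p of 0.0104 (edgeR). The call rested on diet-switch library 7, without which the value was 1.48 with an adjusted p of 0.109. Without diet-switch libraries 3, 4 and 7 it was 0.27, and 0 genes of the list were called higher and 1 lower. That fit called 1143 in place of 3750 rows in either direction. Igfals, which holds insulin-like growth factors in a circulating complex and in the liver is a target of growth hormone, fell in all 3 treated groups. Its log2 fold changes were -1.57 ± 0.31 for the diet switch against HFD (adjusted p 3.72e-04), -1.34 ± 0.31 for tirzepatide against HFD (adjusted p 0.00187) and -1.04 ± 0.30 for semaglutide against HFD (adjusted p 0.0401). The call for semaglutide ended without any single one of HFD libraries 1, 2, 5, 6, 7 and 8 or semaglutide libraries 1, 2, 3, 7 and 8 (adjusted p 0.0525 and above), and with no filter on low counts (adjusted p 0.0913) or with a replicate block (adjusted p 0.0551). Igfals was the 1 gene of the list called for semaglutide against HFD, where 2.63% of all tested rows were called lower. For tirzepatide against HFD 1 gene of the list was called higher and 2 lower, where 20.6% of all tested rows were called, 9.81% higher and 10.8% lower.

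Of the receptors and targets of steroid and thyroid hormones, 12 were tested, and 2 were called lower and 0 higher for HFD against ND, where 1.63% of all tested rows were called lower. One of these was Hsd11b1, the enzyme that regenerates active glucocorticoid inside cells. It had a median of 33.3 CPM on HFD against 93.2 CPM on ND. The highest HFD library had 56.6 CPM and the lowest ND library 78.4 CPM, so the groups did not overlap. Its log2 fold change was -1.49 ± 0.18 with an adjusted p of 1.01e-07 (edgeR quasi-likelihood test). The glucocorticoid receptor Nr3c1 had -0.42 ± 0.14 and an adjusted p of 0.0756 and was called by DESeq2, with an adjusted p of 0.0422.

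For the diet switch against HFD, 5 of the 12 genes rose and 0 fell, where 12.8% of all tested rows were called higher. Zbtb16, a glucocorticoid-induced transcription factor, rose by 2.20 ± 0.33 (adjusted p 7.68e-06, edgeR) to a median of 93.4 CPM, against 23.5 CPM on HFD. Esr1, the estrogen receptor alpha, rose by 1.40 ± 0.25 (adjusted p 6.59e-05). Hsd11b1 rose by 1.01 ± 0.18 (adjusted p 5.52e-05), to 64.2 CPM after the switch. Klf9, a target of glucocorticoid and thyroid hormone, rose by 0.66 ± 0.17 (adjusted p 0.00311). Nr3c1 rose by 0.55 ± 0.14 (adjusted p 0.00386), with 0.39 and an adjusted p of 0.117 without diet-switch libraries 3, 4 and 7. Without these libraries 13 genes of the list were tested and 5 rose, Nr3c1 no longer among them. In that fit 1143 in place of 3750 rows were called in either direction. For semaglutide against HFD, where the Mup sum was lower, 2 of 12 rose and 0 fell (4.14% of all tested rows called, 1.51% higher and 2.63% lower), and Hsd11b1 was one of them, at 0.68 ± 0.18 (adjusted p 0.0174). That call ended without the 11 muscle-rich libraries (adjusted p 0.0635), and 0 genes of the list were then called. For tirzepatide against HFD 5 of 12 rose and 0 fell, where 9.81% of all tested rows were called higher and 10.8% lower. One of the 5 was Zbtb16, with 1.46 ± 0.32 (adjusted p 0.00135). Without the muscle-rich libraries 3 of 13 rose, and 1144 in place of 3249 rows were called in either direction.

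Transcription factors that act on genes of liver were mostly too low to test or not called. Of 12 listed factors, 6 were tested. For HFD against ND 0 of the 6 were called by edgeR (4.43% of all tested rows called) or DESeq2, and 0 had an unadjusted p under 0.05. Zhx2, which in mice controls several liver genes and Mup among them, had a median of 7.87 CPM on HFD against 9.77 CPM on ND, with -0.34 ± 0.25 and an adjusted p of 0.513 (edgeR quasi-likelihood test). Ppara, the fatty acid receptor, was called higher with tirzepatide than with semaglutide, with 22.8 CPM against 7.48 CPM, a log2 fold change of 1.48 ± 0.28 and an adjusted p of 9.65e-04. It was the 1 of 6 factors called in that comparison, where 4.05% of all tested rows were called higher and 5.91% lower.

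Other lipocalins, the protein family to which Mups belong, were lower on HFD in part. Of 18 listed, 12 are in the table and 6 were tested, and 2 were called lower and 0 higher for HFD against ND, where 1.63% of all tested rows were called lower and 2.8% higher. Orm3, an orosomucoid, had a median of 5.59 CPM on HFD against 32.1 CPM on ND, with -2.45 ± 0.31 and an adjusted p of 4.82e-07 (edgeR quasi-likelihood test). After the switch Orm3 had 9.53 CPM and had a log2 fold change against ND of -1.67 ± 0.30 (adjusted p 3.92e-04). Rbp4, the plasma carrier of retinol, had 206 CPM on HFD against 384 CPM on ND, with -0.81 ± 0.22 and an adjusted p of 0.0202. That call ended without HFD library 3 (-0.73, adjusted p 0.0534), without ND library 4 (-0.72, adjusted p 0.0519) and without the 11 muscle-rich libraries (-0.78, adjusted p 0.0689). The acute-phase proteins Orm1 and Orm2 fell with semaglutide against HFD, with log2 fold changes of -1.10 ± 0.26 (adjusted p 0.00718) and -1.19 ± 0.26 (adjusted p 0.00341). They were the 2 of 6 lipocalins called there, where 2.63% of all tested rows were called lower. With tirzepatide against HFD, where the Mup sum was higher, Orm1 and Orm2 were also called lower, at -1.08 ± 0.26 (adjusted p 0.00241) and -0.96 ± 0.25 (adjusted p 0.00591). In that comparison 1 of 6 lipocalins rose and 3 fell (9.81% and 10.8% of all tested rows). Without the 11 muscle-rich libraries 0 of the 6 were called there, with -0.76 for Orm1 (adjusted p 0.136) and -0.66 for Orm2 (adjusted p 0.192).

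Among tested genes outside the Mup family, those whose log2 CPM followed the Mup sum most closely over the 40 libraries included several enzymes of fatty acid synthesis. The 10 highest values of Pearson's r were Fasn 0.86, Acaca 0.85, Pdhb 0.82, Apoc1 0.82, Thrsp 0.82, Acacb 0.79, Tkt 0.79, H2-Q10 0.79, Parm1 0.78 and Acly 0.77. Fasn encodes fatty acid synthase, Acaca and Acacb the acetyl-CoA carboxylases, Acly ATP citrate lyase, Thrsp a regulator of lipogenesis, Pdhb a subunit of pyruvate dehydrogenase and Tkt transketolase of the pentose phosphate pathway. The 40 points share the differences between 5 groups, so these values describe the pattern and carry no p. The 5 lowest values were -0.78 for Synpo2, -0.78 for Peg3, -0.73 for Crtac1, -0.72 for Mycbp2 and -0.72 for Sfrp5.

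Fasn shows where the likeness holds and where it does not. Its median was 2708 CPM after the switch, 838 with tirzepatide, 436 with semaglutide, 1036 on HFD and 4579 on ND. The highest HFD library, at 1247 CPM, lay below the lowest ND library, at 2937 CPM, so these groups did not overlap, as for the Mup sum. Acaca had medians of 276, 116, 66.1, 67.9 and 452 CPM in the same order of groups, so its semaglutide and HFD medians were close, while the Mup sum had 25.2 and 79.0 CPM there. With the 2 libraries farthest from the median left out, r was 0.85 for Fasn and 0.84 for Acaca. With group means removed, r was 0.56 for Fasn and 0.55 for Acaca.

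With group means removed, the genes with the highest r were Pdhb at 0.69 and Cyp2e1 at 0.69. Then came Gm13339, Srf, Gm28437, Bhlhe41, Lgr5, mt-Co3, Irgm2 and Glul, at 0.64 to 0.61. Cyp2e1 encodes a cytochrome P450 that oxidizes ethanol and fatty acids, in liver and in fat. Its medians were 324 CPM after the switch, 146 with tirzepatide, 75.3 with semaglutide, 162 on HFD and 281 on ND. For HFD against ND its log2 fold change was -0.49 ± 0.46 (adjusted p 0.642, edgeR quasi-likelihood test). It was 1.04 ± 0.47 for the diet switch against HFD (adjusted p 0.103). Without HFD library 8 Cyp2e1 was called there (1.35, adjusted p 0.0384, edgeR).

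**Figure D5:**
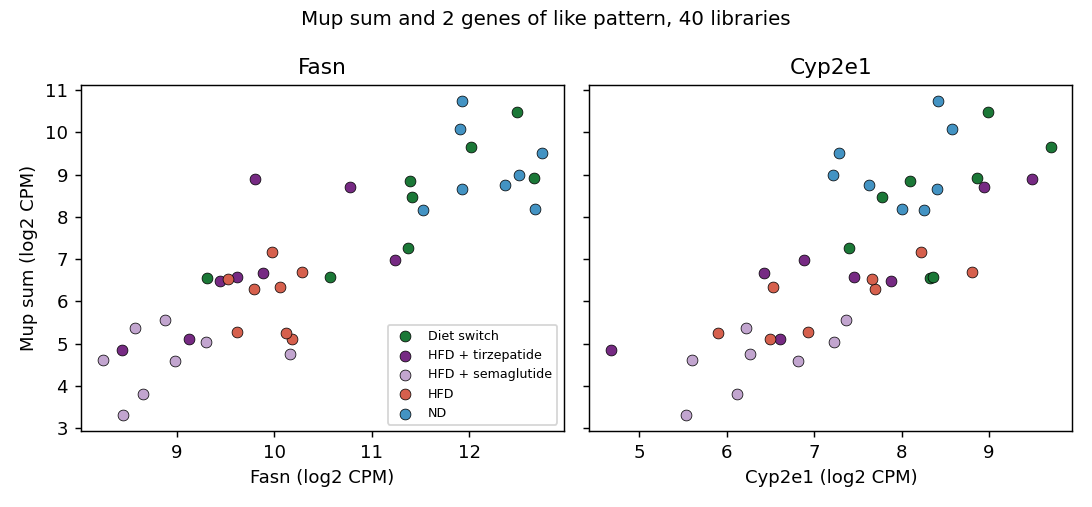
Log2 CPM of the Mup sum against log2 CPM of Fasn, left, and of Cyp2e1, right, in 40 libraries coloured by group. Pearson's r is 0.86 for Fasn and 0.77 for Cyp2e1 over all libraries, and 0.56 and 0.69 with group means removed.

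Scd3, a fatty acid desaturase best known from the sebaceous glands of skin, was called in the direction of the Mup sum in 4 comparisons. Its median was 46.0 CPM after the switch, 31.8 with tirzepatide, 18.1 with semaglutide, 15.7 on HFD and 47.4 on ND. Its log2 fold changes were -1.65 ± 0.26 for HFD against ND (adjusted p 2.70e-05, edgeR quasi-likelihood test), 1.28 ± 0.26 for tirzepatide against HFD (adjusted p 3.59e-04), 1.67 ± 0.26 for the diet switch against HFD (adjusted p 7.71e-06) and 1.09 ± 0.25 for tirzepatide against semaglutide (adjusted p 0.00512). For semaglutide against HFD it had 0.19 ± 0.26 (adjusted p 0.746), where the Mup sum had -1.49. Of the skin list 4 genes were tested, and for HFD against ND 1 rose and 1, Scd3, fell (2.8% and 1.63% of all tested rows). For the diet switch against HFD 2 rose and 1 fell (12.8% and 10.9%). For tirzepatide against HFD 1 rose and 1 fell (9.81% and 10.8%), and for semaglutide against HFD 0 rose and 1 fell (1.51% and 2.63%). For tirzepatide against semaglutide 1 rose and 0 fell (4.05% and 5.91%). The gene that rose was Krt79, a keratin of hair follicles and sebaceous ducts, with 13.4 CPM on HFD against 3.41 CPM on ND and 1.94 ± 0.34 (adjusted p 1.42e-04). The median of Krt79 was 3.02 CPM after the switch, 4.22 with tirzepatide and 5.51 with semaglutide. Within groups, r with the Mup sum was -0.16 for Scd3 and -0.45 for Krt79.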

How the data were processed

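RNA of sWAT was profiled in 40 libraries, per the labels' protocols with the LexoGen QuantSeq kit on an Illumina HiSeq. The build was mm10, per the submitters' processing notes. On the aligner, the counting program and reads that fit several copies nothing is given in the sources used here. Counts per gene symbol were deposited by the authors and used as they stand. The 10 Mup rows were replaced by their sum. edgeR 4.0.16 (TMM, filterByExpr, robust quasi-likelihood fit, 40 libraries, 1 mean per group, R 4.3.3) tested 15799 rows, with calls at a Benjamini-Hochberg adjusted p under 0.05. Log2 CPM used a prior count of 2. Intervals are 95% from the fit. Transcript ends came from GENCODE M21, and promoter windows from RefSeq on GRCm38.p6. The fit was tested on simulated data.

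The members, lists and libraries left out were chosen with earlier results of these data known. Named were all Mup genes, the genes most like the Mup sum, and up to 4 called genes per list and comparison, plus Ghr, Stat5b, Nr3c1 and Zhx2. Another gene of this rule is not reported here. Lcn13 is on that rule but is not in the table used here. No 2 libraries of a group were copies (smallest chi-square per degree of freedom 3.99 over 140 pairs). Alternatives were DESeq2 1.42.0, its size factors, other filters, fewer groups or libraries, a replicate block and other Mup rows.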

Additional observations from a re-analysis of the deposited data

Results flagged for a closer look

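In 7 of 135 groups of 8 libraries checked for the named genes, 1 library stood further from the others than Dixon's 95% limit allows, and chance alone gives about 1 in 20. No group of the Mup sum was among them. Igfals had its lowest HFD value in library 3, at 4.57 log2 CPM. Nr3c1 was lowest on HFD in library 2, at 5.93 log2 CPM, and with semaglutide in library 1, at 6.36. Orm2 was lowest on ND in library 5, at 6.84 log2 CPM, and Rbp4 in the same ND library, at 7.69, which is also the ND library with high B cell genes. Orm3 was highest with tirzepatide in library 1, at 4.78 log2 CPM. Scd3 was lowest on HFD in library 8, at 2.58 log2 CPM.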

How the results depend on the processing

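Diet switch against ND and tirzepatide against semaglutide did not choose the genes. Each follows from a pair of comparisons that did, so neither is independent of the choice. Their 102 alternative values of the Mup sum with a test kept their direction and their side of the threshold. In each of these comparisons 40 alternatives left out 1 library, most often from a group not compared, which can move the value little. The other 206 alternative values, nearly all of the comparisons that chose the genes, carry no test and kept their sign. Leaving out each library in turn gave 2.24 to 2.83 for tirzepatide against semaglutide and -0.97 to -0.14 for diet switch against ND. It gave -3.37 to -2.82 for HFD against ND, -1.65 to -1.29 for semaglutide against HFD, 0.75 to 1.37 for tirzepatide against HFD and 2.20 to 2.87 for the diet switch against HFD. With the replicate block the Mup sum had 2.34 for tirzepatide against semaglutide (adjusted p 0.0124, edgeR) and -0.48 for diet switch against ND. For tirzepatide against HFD it had 0.90 with the block, in place of 1.18. Deviations of same-numbered libraries had r of -0.35 to 0.26 over 80 pairs (median 0.031, against -0.005 for other numbers), and 18 of the 80 were over 0.1. The main fit did not take the numbers as pairs, and whether they mark pairs was not tested. In 11 of 40 libraries the most like library of another group had the same number, which 4 of the 32 libraries of other groups carry. The block also left Cish uncalled after the switch (1.98, adjusted p 0.0851). With only the groups compared, 1004 rows in place of 654 were called for semaglutide against HFD and 1469 in place of 2336 for diet switch against ND. Without the 11 muscle-rich libraries, 1144 in place of 3249 were called for tirzepatide against HFD and 215 in place of 1573 for tirzepatide against semaglutide. Without diet-switch libraries 3, 4 and 7, 1143 in place of 3750 were called for diet switch against HFD and 116 in place of 2336 for diet switch against ND. The cause of these shifts was not tested. Of the 2062 alternative values of named genes, most of them with 1 library left out, 2028 kept their call and 0 changed sign. Depth limits Mup3, Mup5 and Mup6.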
